A study of Mus musculus with 2 samples.

Results

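Drd1 striatal-type projection neurons are nuclei, found among those sorted from the mouse preoptic area (POA), that carry the transcripts of the direct-pathway neurons of the striatum. They are called Drd1 nuclei here. They were chosen by counts of unique molecular identifiers (UMIs, 1 for each captured mRNA molecule): at least 2 UMIs of Rarb, at least 1 of Drd1, none of Drd2, Adora2a or Chst9, at least 2000 UMIs in all, 200 to 7500 genes and at most 5% mitochondrial UMIs. In all, 1258 of 20952 nuclei that passed the limits on depth, genes and mitochondrial UMIs met this rule. Of these, 284 came from the US+ library, which is 2.87% of its 9912 nuclei (95% interval 2.55 to 3.21), and 974 came from the US- library, which is 8.82% of its 11040 nuclei (8.30 to 9.37).

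Projection neurons of the striatum use GABA and are classed by their dopamine receptor. Those of the direct pathway carry the D1 receptor (Drd1), which acts through the olfactory G protein (Gnal, Gng7) on adenylyl cyclase 5 (Adcy5). The cAMP that is made activates protein kinase A, and the kinase acts on DARPP-32 (Ppp1r1b) and on the factor CREB in the nucleus. Those of the indirect pathway carry the D2 receptor and an adenosine receptor (Drd2, Adora2a) and the peptide gene Penk. Activity and cAMP in such neurons are known to switch on immediate-early genes, whose transcripts appear within minutes and need no new protein. Neurons of this kind populate the caudate putamen, the nucleus accumbens and the olfactory tubercle, which lie near the POA. The labels name only the POA as the tissue, and the position of a nucleus in the tissue was not measured.

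The US+ group received ultrasound aimed at the POA, and the US- group received a sham treatment. Mice of both groups were wild type and 6 to 9 weeks old. The POA was taken about 1 h after stimulation, the homogenate of 4 mice per group was pooled, and nuclei positive for DAPI and for NeuN, an antigen of neuronal nuclei, were sorted into 1 droplet library per group. The study asked which neurons and channels respond to ultrasound. With 1 pooled library in each group, no spread between mice is known and no test between groups is possible, so each value below sets 1 library against the other, not 1 treatment against the other. Intervals are exact 95% intervals (Poisson for a level, conditional binomial for a ratio, conditional odds ratio for a ratio of ratios, binomial for a share) and cover counting error only.

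The libraries held 12075 barcodes in US+ and 11725 in US-, of which 29 occurred in both; 1 of the US+ and 2 of the US- Drd1 nuclei had such a barcode, and no barcode was a Drd1 nucleus in both. Under 2000 UMIs were 2015 US+ and 635 US- nuclei. The Drd1 nuclei held 3349771 UMIs in US+ and 9979548 in US-, with a median of 10068.5 and 9131 UMIs and of 3388 and 3459 genes per nucleus. A count of 3 UMIs thus stands for 0.896 CPM (UMIs per 1000000) in US+ and 0.301 CPM in US-. All levels are CPM of the UMIs summed over a class of nuclei. Mitochondrial UMIs averaged 0.0926% of a Drd1 nucleus in US+ and 0.0802% in US-. Xist, the RNA that marks an inactive X chromosome, had a UMI in 99.3% of US+ and 99.4% of US- Drd1 nuclei, and no Drd1 nucleus of either library had Y-linked UMIs without Xist.

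Other striatal-type classes were smaller in US+ as well. Nuclei with at least 2 Rarb UMIs, Drd2 or Adora2a and no Drd1 or Chst9 (Drd2 Adora2a nuclei) were 239 in US+, 2.41% of the library, and 855 in US-, 7.74%. Nuclei that met the rule except for at least 1 UMI of Chst9, a sulfotransferase gene (Chst9 nuclei), were 53 in US+ (0.535%) and 105 in US- (0.951%). The treatment and the place where the tissue was cut cannot be told apart in these shares. All nuclei that were not Drd1 nuclei, 9628 in US+ and 10066 in US-, are called other nuclei, and they include these classes.

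The counts that chose the nuclei are given as a description only. The median Drd1 nucleus had 10 Rarb UMIs in US+ and 12 in US-, and 1 Drd1 UMI in both. Just inside the rule, with exactly 2 Rarb UMIs, were 22 US+ and 45 US- nuclei with 620 and 829 CPM of the phosphodiesterase gene Pde10a. Just outside it, with 1 Rarb UMI, were 45 US+ and 69 US- nuclei with 605 and 704 CPM of Pde10a, against 1668 and 1587 CPM in all Drd1 nuclei. With Drd1 at exactly 1 UMI were 179 US+ and 559 US- Drd1 nuclei. With no Drd1 UMI, and the rest of the rule met, were 692 US+ and 1333 US- nuclei, so that more nuclei with Rarb lay outside the rule at this depth than inside. Drd2 or Adora2a UMIs kept out 19 US+ and 103 US- nuclei, and the limit of 2000 UMIs had 4 US+ and 10 US- nuclei between 2000 and 3000 UMIs inside and 1 US+ and 3 US- nuclei between 1000 and 2000 outside.

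The label was checked on striatal markers beyond the rule. Each marker given for the cells was higher in Drd1 nuclei than in other nuclei of both libraries, as a description of the nuclei chosen. Ppp1r1b was at 28.7 CPM in US+ Drd1 nuclei, against 3.02 CPM in other US+ nuclei (ratio 9.50), and at 31.3 CPM in US- Drd1 nuclei, against 10.8 CPM in other US- nuclei (ratio 2.90). Bcl11b, a zinc finger factor that these neurons need to mature, was 3.46 and 2.11 times as high in the Drd1 nuclei of US+ and US-, and Pde10a was 2.45 and 1.79 times as high. Of 21 further markers shared by striatal projection neurons, 14 were over 1.5-fold higher in both libraries and none lower. Over 14146 genes with at least 500 UMIs in all, 562 (3.97%) were over 1.5-fold higher in Drd1 nuclei of both libraries and 1921 (13.6%) over 1.5-fold lower.

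The G protein, cyclase and phosphatase genes of the D1 cascade were among those above other nuclei. Gnal was 3.39 and 2.35 times as high in US+ and US-, Gng7 4.74 and 3.32 times, and Adcy5 3.30 and 2.77 times. Of 40 cascade genes, 19 were over 1.5-fold higher in both libraries and 2 over 1.5-fold lower. Gnas, the widely used stimulatory G protein that Gnal replaces in the striatum, was at 0.370 and 0.270 times its level in other nuclei. Since other US+ nuclei hold fewer striatal-type nuclei than other US- nuclei, these ratios are not the same quantity in both libraries.

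Most direct-pathway genes measured set the Drd1 nuclei apart from Drd2 Adora2a nuclei. Tac1, the substance P precursor, was at 87.8 CPM in US+ Drd1 nuclei, against 9.85 CPM in US+ Drd2 Adora2a nuclei, and at 91.2 CPM in US- Drd1 nuclei, against 18.7 CPM in US- Drd2 Adora2a nuclei. Pdyn, the dynorphin precursor, was 14.9 and 9.76 times as high in the Drd1 nuclei of US+ and US-. The transcription factor genes Isl1 and Ebf1, which direct-pathway neurons use in development, had ratios of 4.05 and 5.34 for Isl1 and of 4.50 and 6.75 for Ebf1. Of 7 direct-pathway markers measured, 5 were over 1.5-fold higher in both libraries. Of 4 indirect-pathway markers, each was over 1.5-fold lower, with Penk at 0.133 and 0.127 times its level in Drd2 Adora2a nuclei. Slc35d3, a carrier gene needed in mice to bring the D1 receptor to the cell surface, was at 15.5 CPM in US+, against 12.02 CPM in US- Drd1 nuclei.

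**Figure D1:**
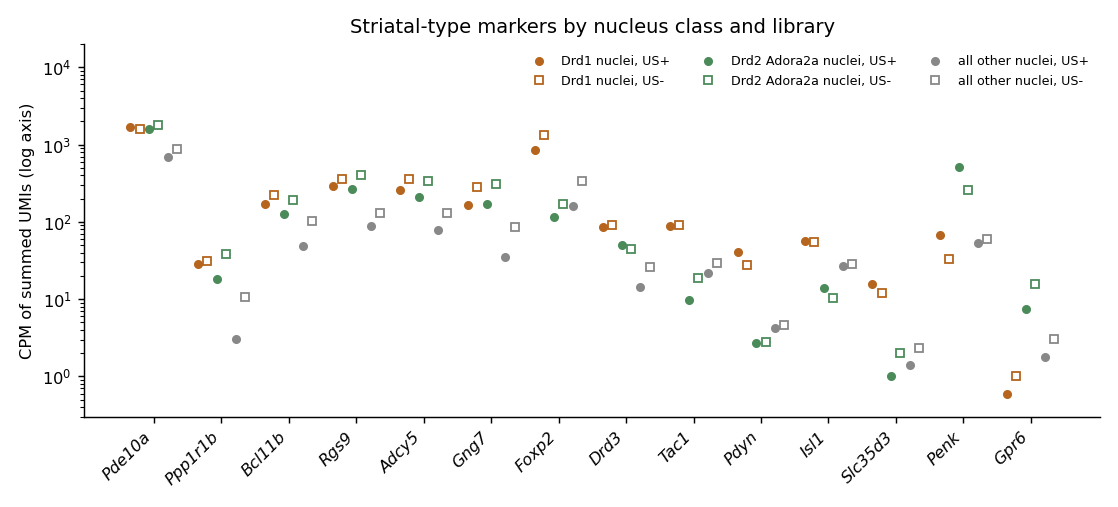
Levels of striatal-type marker genes in Drd1, Drd2 Adora2a and all other nuclei (colours) of the US+ library (filled circles) and the US- library (open squares), as CPM of summed UMIs on a log axis. Shared markers such as Pde10a and Rgs9 lie close in both striatal classes and above other nuclei, whereas Tac1, Pdyn, Isl1 and Slc35d3 lie above, and Penk and Gpr6 below, the level of Drd2 Adora2a nuclei.

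The genes that led the Drd1 nuclei over other nuclei included several noncoding RNAs. The long noncoding RNA 6530403H02Rik was at 406 CPM in US+, against 489 CPM in US- Drd1 nuclei, which is 9.11 and 4.87 times its level in other nuclei and 7.03 and 8.39 times its level in Drd2 Adora2a nuclei. Foxp2, a forkhead factor, was at 851 and 1319 CPM in US+ and US- Drd1 nuclei, or 5.25 and 3.88 times its level in other nuclei. The other leaders were Gm10754, 4930525C09Rik, Mhrt, Strip2, Ano2, Prkch, Ramp1, 4933421D24Rik, Arhgap10 and Crym, each with a lower ratio of the pair between 3.99 and 5.02. Lowest against other nuclei were Ccbe1 (0.187 and 0.152), Nwd2 (0.220 and 0.175), Ntn4, Tnfsf13b, Gm5820, Gm29478, Gm4876 and E130114P18Rik. Drd3, the D3 receptor, which in the striatum is most abundant ventrally, was at 86.0 CPM in US+, against 89.9 CPM in US- Drd1 nuclei, or 6.01 and 3.48 times its level in other nuclei.

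Markers of other neurons were low but present. Slc17a7, the cortical vesicular glutamate transporter, had 0 UMIs in the Drd1 nuclei of both libraries, which allows up to 0.896 CPM (3 UMIs) in US+ and up to 0.301 CPM in US-. Slc17a6, the hypothalamic one, was at 11.3 CPM in US+, against 4.71 CPM in US- Drd1 nuclei, and at 33.5 and 24.6 CPM in US+ and US- other nuclei. Gad2, a GABA-synthesizing enzyme, was at 295 and 316 CPM. Over 22 preoptic and hypothalamic markers the summed level was 260.6 CPM in US+, against 130.1 CPM in US- Drd1 nuclei, and 496 and 337 CPM in US+ and US- other nuclei, so this list moved with the library in both. Hmx3 was at 0 in the Drd1 nuclei of both libraries, Qrfp at 0 in US+ and Six6 at 0 in US-.

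The immediate-early genes were far higher in US+ than in US- Drd1 nuclei. Fos, Fosb, Nr4a1, Egr1 and Dusp1, the early genes by which the study ranked populations, summed to 246.9 CPM (230.3 to 264) in US+, against 29.9 CPM (26.6 to 33.5) in US- (827 and 298 UMIs, ratio 8.27, 95% interval 7.23 to 9.47). Each of the 5 was over 1.5-fold higher in US+. Over 10492 genes with at least 100 UMIs in the Drd1 nuclei of both libraries together, 502 (4.78%) were over 1.5-fold higher in US+ and 882 (8.41%) over 1.5-fold lower, with 0.5 CPM added to both levels. Over the 12591 genes with at least 50 UMIs, the background for the lists below, 703 (5.58%) were higher and 1328 (10.5%) lower, and the median ratio was 0.938. With every nucleus thinned to 2000 UMIs, and so with fewer genes past the limit, 288 were higher and 335 lower. The excess of lower genes rested on genes with few UMIs: over genes with at least 500 UMIs, 222 were higher and 164 lower, and with 5 CPM added to both levels, 382 were higher and 425 lower.

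Fosb, a partner in the AP-1 dimer, had the highest ratio among genes with at least 200 UMIs. It was at 66.0 CPM in US+ Drd1 nuclei (221 UMIs), against 1.30 CPM in US- (13 UMIs, ratio 50.6, 29.0 to 96.6). Npas4, a neuron-specific factor that responds to calcium entry, was at 194 CPM in US+, against 7.52 CPM in US- (25.9, 20.3 to 33.3). Nr4a1, an orphan nuclear receptor and a known marker of striosome neurons, was at 89.9 CPM in US+, against 6.51 CPM in US- (13.8, 10.5 to 18.3). These 3 genes encode transcription factors, and their levels in US- lay between 1.30 and 7.52 CPM, where 3 UMIs stand for 0.301 CPM. Fos, the other AP-1 partner, was at 35.2 CPM in US+, against 2.71 CPM in US- (13.0, 8.51 to 20.6). Egr1, a zinc finger factor, was at 47.2 CPM in US+, against 14.9 CPM in US- (3.16, 2.51 to 3.98), and Dusp1, a phosphatase that shuts off MAP kinases, was at 8.66 CPM, against 4.41 CPM (1.96, 1.19 to 3.21). The 5 genes of the sum thus spanned ratios from 1.96 to 50.6.

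The promoters of genes that were high together are shown because cAMP acts through CREB on a short site, the cAMP response element (CRE, TGACGTCA). The 250 bases before the RefSeq start (GRCm38.p6) are given 5′ to 3′ on the gene's strand, with capitals for the CRE core (TGACG on either strand, CGTCA when read from the other one) and for the whole CRE in Btg2. Fosb lies at chr7:19310046-19310295 (minus strand), Npas4 at chr19:4989972-4990221 (minus), Nr4a1 at chr15:101266596-101266845 (plus) and Btg2 at chr1:134079156-134079405 (minus).
Fosb: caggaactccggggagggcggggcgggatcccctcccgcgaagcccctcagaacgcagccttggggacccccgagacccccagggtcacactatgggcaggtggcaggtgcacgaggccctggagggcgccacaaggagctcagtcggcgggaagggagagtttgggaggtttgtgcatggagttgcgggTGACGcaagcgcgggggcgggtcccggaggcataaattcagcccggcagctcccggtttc
Npas4: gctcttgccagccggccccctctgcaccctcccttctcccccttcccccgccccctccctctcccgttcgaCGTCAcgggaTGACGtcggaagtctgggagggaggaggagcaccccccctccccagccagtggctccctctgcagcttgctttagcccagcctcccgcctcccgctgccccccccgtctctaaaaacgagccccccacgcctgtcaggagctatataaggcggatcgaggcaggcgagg
Nr4a1: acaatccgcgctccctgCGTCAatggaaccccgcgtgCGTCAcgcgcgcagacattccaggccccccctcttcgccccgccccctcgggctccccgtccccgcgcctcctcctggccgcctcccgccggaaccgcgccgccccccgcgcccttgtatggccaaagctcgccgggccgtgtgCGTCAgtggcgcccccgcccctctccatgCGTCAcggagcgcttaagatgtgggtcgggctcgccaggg
Btg2: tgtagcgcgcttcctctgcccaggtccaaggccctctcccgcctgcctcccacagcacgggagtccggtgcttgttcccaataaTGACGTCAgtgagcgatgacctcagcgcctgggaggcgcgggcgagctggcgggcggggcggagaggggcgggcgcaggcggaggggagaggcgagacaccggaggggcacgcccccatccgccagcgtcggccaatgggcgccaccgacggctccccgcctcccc
Nr4a1 has 4 CRE cores, the nearest 40 bases before the start, and Npas4 has 2 on opposite strands, at 179 and 169 bases before the start. The 17 genes searched were those with the highest ratio in these data and the early genes of the study, to which Arc and Btg2 were added. Of these, 12 had a promoter in the reference. A CRE core was held by 8 of the 12 (Fosb, Npas4, Nr4a1, Rgs2, Junb, Fos, Dusp1 and Btg2), against 17.8% of all 32851 promoter windows of this length. Gadd45g, Mir670hg, Dusp14 and P4ha1 held none, and the 4 promoters shown were picked among those with a core. The genes were picked from these data, so the shares are a description only. The whole CRE, which holds a CRE core on each strand, was in 2 of the 12 (Dusp1 and Btg2) and in 1.55% of all. The AP-1 site (TGANTCA) was in 1 (Mir670hg) and in 6.75% of all, and the CArG box, the site of serum response factor, was in none of the 12 and in 1.47% of all. A match is a run of letters and does not show that a factor was bound.

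**Figure D2:**
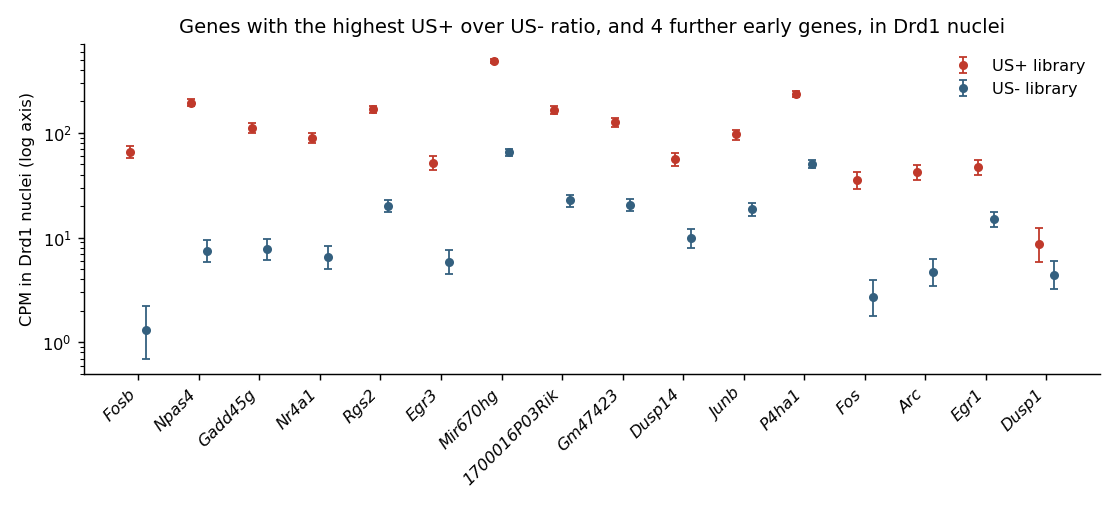
CPM of summed UMIs in US+ (red) and US- (blue) Drd1 nuclei on a log axis, with exact 95% Poisson intervals, for the 12 genes with the highest US+ over US- ratio and for Fos, Arc, Egr1 and Dusp1. The intervals of the libraries do not overlap for any gene but Dusp1, at 8.66 CPM in US+, against 4.41 CPM in US-.

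The pattern held over most of the early transcription factors. Of 27 on the list, 18 had at least 50 UMIs. Of these, 13 were over 1.5-fold higher in US+ and none over 1.5-fold lower, where 5.58% of all genes were higher and 10.5% lower. Their median ratio was 4.42, against 0.938 over all genes. The limit of 50 UMIs counts both libraries together. A gene can thus pass it through its UMIs in US+ alone, and a rare gene lower in US+ can fail it. The counts past 1.5-fold are therefore in part set by the limit. With a limit of 10 UMIs, 15 of 23 measured were over 1.5-fold higher. Nr4a3 and Egr4, relatives of Nr4a1 and Egr1, were at 42.1 and 39.4 CPM in US+, against 2.20 and 2.61 CPM in US- (ratios 19.1 and 15.1). Egr3 was at 51.6 CPM, against 5.91 CPM (8.74, 6.47 to 11.9), and Junb at 96.7 CPM, against 18.6 CPM (5.19, 4.32 to 6.25). The family members differed. Nr4a2, which is closely related to Nr4a1 and Nr4a3 and best known in dopamine neurons, had 0 UMIs in US+ and 15 in US- Drd1 nuclei. Jund, a Jun protein with steady expression, was at 12.5 CPM in US+, against 11.2 CPM in US- (1.12, 0.764 to 1.61), and Bhlhe40, a clock-linked repressor, at 5.37 and 6.11 CPM (0.879, 0.489 to 1.51). Atf3, Csrnp1 and Ier2, stress- and growth-induced factors, had at most 2 UMIs in US+ and 5 in US-. Nr4a3, Egr4, Nr4a2, Atf3, Csrnp1 and Ier2 were named after their values were seen.

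Early effectors and feedback regulators were higher as well. Of 17 measured from a list of 24, 14 were over 1.5-fold higher in US+ and none over 1.5-fold lower, with a median ratio of 3.83. Gadd45g, a growth-arrest gene, was at 112 CPM in US+, against 7.82 CPM in US- (14.3, 11.2 to 18.5). Btg2, an antiproliferative gene, was at 28.4 CPM, against 2.81 CPM (10.1, 6.57 to 16.01). Arc, a synaptic protein whose RNA moves to dendrites, was at 42.4 CPM, against 4.71 CPM (9.00, 6.43 to 12.8). Several of the group damp the signals that induce it. Rgs2, which speeds the shut-off of G proteins, was at 168 CPM in US+, against 20.1 CPM in US- (8.36, 7.10 to 9.87), and the phosphatase gene Dusp14 was at 56.1 CPM, against 9.82 CPM (5.71, 4.45 to 7.37). Homer1, a scaffold of glutamate receptors, was at 317 CPM, against 175 CPM (1.82, 1.68 to 1.96), and Spry2, a brake on growth factor signals, at 10.1 and 12.1 CPM (0.837, 0.555 to 1.23). Rgs4, a relative of Rgs2, was at 18.5 and 13.1 CPM (1.41, 1.02 to 1.92). Arc and Homer1 were named for their role after their values were seen.

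Noncoding transcripts were among the 12 genes with the highest ratio. Mir670hg, a host gene on chromosome 2 (minus strand, mm10 positions 94160636 to 94264918) that spans Mir670 and Mir129-2, was at 485 CPM in US+ Drd1 nuclei, against 65.6 CPM in US- (7.39, 6.74 to 8.10). 1700016P03Rik, on chromosome 11 (plus strand, 75172560 to 75177633), was at 166 CPM, against 22.6 CPM (7.32, 6.26 to 8.58). It holds Mir212 and Mir132 on the same strand, and CREB is known to induce this pair of miRNAs in neurons. The mature forms (RefSeq, GRCm38.p6, plus strand, at chr11:75173723-75173744 and chr11:75173443-75173464) are shown because they share the seed, bases 2 to 8, given in capitals.
mmu-miR-132-3p: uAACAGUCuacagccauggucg
mmu-miR-212-3p: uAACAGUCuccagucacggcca
UMIs of a host transcript do not measure the miRNAs. P4ha1, a prolyl hydroxylase of collagen, was at 237 CPM in US+, against 51.0 CPM in US- (4.65, 4.16 to 5.21).

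Ntrk2, the receptor of brain-derived neurotrophic factor, was at 1202 CPM in US+ Drd1 nuclei, against 359 CPM in US- (3.35, 3.20 to 3.50), the highest ratio of the modulatory receptors with at least 50 UMIs. It had a UMI in 98.6% of US+ and 82.9% of US- Drd1 nuclei, and in 81.3% and 43.0% after thinning. Gm47423, an antisense gene annotated within the span of Ntrk2 (chromosome 13, minus strand, 58824218 to 58826994), was at 127 CPM, against 20.5 CPM (6.16, 5.20 to 7.32). The study used Cell Ranger with its default settings, which assign a read to a gene by strand. In other nuclei Ntrk2 was at 489 CPM in US+, against 372 CPM in US- (1.32). The summed modulatory receptors, of which Ntrk2 is 1, had a ratio of 1.53 in Drd1 nuclei and 1.52 in Drd2 Adora2a nuclei. Their ratio in other nuclei was 1.02. The higher sum was thus found in both striatal classes. Ntrk2 held much of it, at 1202 of 2337 CPM in US+ and 359 of 1524 CPM in US- Drd1 nuclei. The median ratio of the list was 0.974 in Drd1 nuclei and 1.18 in Drd2 Adora2a nuclei, so the list did not rise as a whole in Drd1 nuclei. Bdnf, its ligand, was at 4.78 CPM in US+, against 3.31 CPM in US- Drd1 nuclei, from 16 and 33 UMIs, and was named after its value was seen.

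Most of the US+ Drd1 nuclei carried early gene UMIs. At least 1 UMI of the 5 early genes was found in 203 of 284 US+ nuclei (71.5%, 65.8 to 76.7), against 177 of 974 US- nuclei (18.2%, 15.8 to 20.7). With every nucleus thinned to 2000 UMIs, the shares were 33.1% (27.7 to 38.9) in US+ and 5.95% (4.55 to 7.63) in US-. Nuclei with no Rarb UMI, which had fewer UMIs (median 6939 in US+ and 7174.5 in US-), had such a UMI in 18.1% of 7300 in US+ and 15.0% of 6184 in US-, or 7.10% and 4.75% after thinning. Npas4 had a UMI in 69.7% of US+ and 5.54% of US- Drd1 nuclei, against 8.18% and 5.37% of US+ and US- nuclei with no Rarb UMI. Fosb had one in 38.0% of US+ and 1.13% of US- Drd1 nuclei.

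Most US+ Drd1 nuclei held UMIs of several early genes. Of the 27 early transcription factor genes, the median US+ Drd1 nucleus had UMIs of 5 (quartiles 3 and 7, at most 14), against 1 (quartiles 0 and 2, at most 10) in US-. At least 3 of the genes were found in 77.8% of US+ and 14.9% of US- nuclei, and none in 6.34% and 34.3%. After thinning, at least 2 were found in 45.8% of US+ and 4.93% of US- nuclei. The tenth of US+ nuclei with the most UMIs of the 5 early genes held 35.8% of these UMIs. Drd2 Adora2a nuclei had a median of 4 early transcription factor genes in US+ and 1 in US-.

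**Figure D3:**
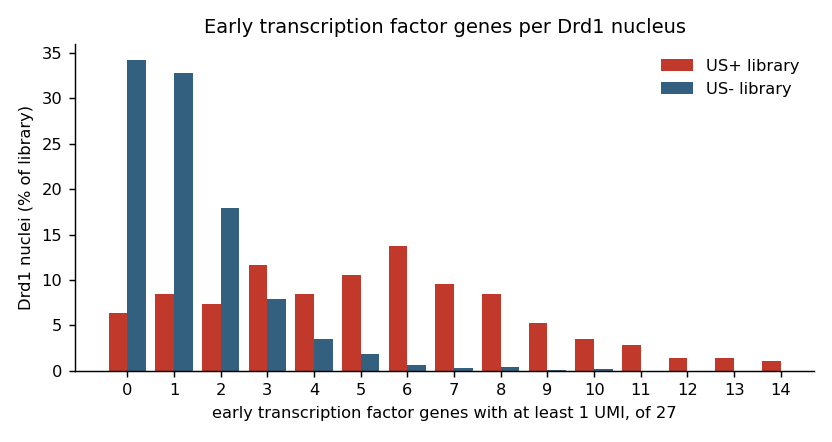
Share of Drd1 nuclei of the US+ (red) and US- (blue) library by the number of early transcription factor genes, of 27, with at least 1 UMI in the nucleus. The US- nuclei lie mostly at 0 to 2 genes and the US+ nuclei spread widely around a median of 5, with 6.34% at 0.

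Pairs of early genes were counted in the same nuclei. Fosb and Npas4 were both found in 94 of 284 US+ nuclei, where 108 held Fosb and 198 held Npas4, and the product of their shares gives 75.3. In US-, 4 of 974 nuclei held both, where 11 held Fosb and 54 held Npas4 (product 0.610). Npas4 and Nr4a1 were both found in 124 US+ nuclei (product 101.8) and in 13 US- nuclei (product 2.77). With every nucleus thinned to 2000 UMIs, Fosb and Npas4 were both found in 11 US+ nuclei (product 9.37) and in 2 US- nuclei (product 0.0287), Fosb and Nr4a1 in 3 US+ nuclei (product 4.24) and in 0 US- nuclei, and Npas4 and Nr4a1 in 18 US+ nuclei (product 14.4) and in 0 US- nuclei. The part of depth in the counts above the product was not tested.

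The early gene sum was higher in US+ than in US- in each class of nuclei, by different factors. The sum of the 5 genes was at 169.1 CPM in US+, against 28.0 CPM in US- Drd2 Adora2a nuclei (ratio 6.04, 5.17 to 7.06), and at 204 CPM in US+, against 10.8 CPM in US- Chst9 nuclei (19.0, 10.8 to 36.5, from 151 and 13 UMIs). In other nuclei, which include both of these classes, it was at 59.5 CPM in US+, against 25.3 CPM in US- (2.35, 2.24 to 2.47). The ratio of the Drd1 nuclei was 3.52 (3.05 to 4.07) times that of other nuclei, 1.37 (1.11 to 1.68) times that of Drd2 Adora2a nuclei and 0.436 (0.224 to 0.784) times that of Chst9 nuclei. In US- the Drd1 nuclei were thus close to other nuclei in this sum, and in US+ they were not.

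**Figure D4:**
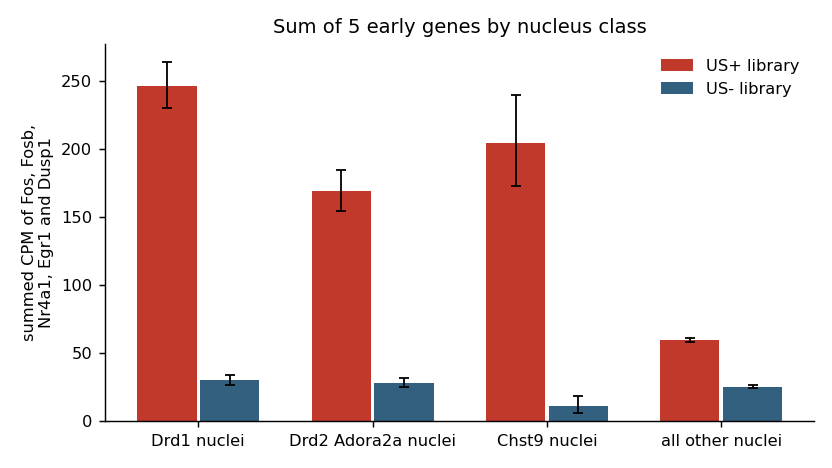
Sum of Fos, Fosb, Nr4a1, Egr1 and Dusp1 in US+ (red) and US- (blue) nuclei of 4 classes, as CPM of summed UMIs with exact 95% Poisson intervals on a linear axis from 0. The US- bars lie between 10.8 and 29.9 CPM in all classes, and the US+ bars between 59.5 CPM in other nuclei and 246.9 CPM in Drd1 nuclei.

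Gene by gene, the Drd1 and Drd2 Adora2a nuclei differed in part of the early genes. Egr3 had a ratio of 8.74 in Drd1 and 3.39 in Drd2 Adora2a nuclei (ratio of ratios 2.58, 1.57 to 4.22), and Nr4a1 of 13.8 and 6.46 (2.14, 1.45 to 3.14). Gadd45g went the other way, with 14.3 in Drd1 and 25.5 in Drd2 Adora2a nuclei (0.561, 0.343 to 0.900). Npas4, at 25.9 and 26.0, had a ratio of ratios of 0.995 (0.681 to 1.45). The median over the early transcription factors was 4.42 in Drd1 and 3.03 in Drd2 Adora2a nuclei, over 18 measured genes in each class.

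Delayed activity-induced genes moved less. Of 18 measured from 25, 6 were over 1.5-fold higher in US+ Drd1 nuclei and none over 1.5-fold lower, with a median ratio of 1.34. The shares over all genes were 5.58% higher and 10.5% lower. Crh, the precursor of corticotropin-releasing hormone, was at 31.3 CPM in US+, against 5.81 CPM in US- (5.39, 3.88 to 7.57), with UMIs in 14.1% and 4.83% of US+ and US- nuclei. Pcsk1, an enzyme that cuts prohormones, was at 23.0 CPM, against 8.42 CPM (2.73, 1.98 to 3.77). Nefm, a neurofilament gene, was at 13.4 CPM in US+, against 18.9 CPM in US- (0.709, 0.501 to 0.986), and Inhba, an activin subunit, at 56.7 and 73.2 CPM (0.774, 0.657 to 0.909). In Drd2 Adora2a nuclei Crh was at 1.70 CPM in US+, against 1.69 CPM in US-. Crh is also 1 of the 22 preoptic markers, of which 14 were measured and 11 were over 1.5-fold higher in US+ Drd1 nuclei and none lower. After Crh the highest of them was Gal, the galanin precursor, at 21.5 CPM in US+, against 7.01 CPM in US- (3.06, 2.17 to 4.32), and the lowest were Lhx8 (0.903) and Calcr (1.07). Their summed level is given above, and its part in the level of Crh was not tested.

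The peptides of the D1 and D2 classes differed in their ratios. Penk, the enkephalin precursor, was at 67.8 CPM in US+ Drd1 nuclei, against 33.0 CPM in US- (2.06, 1.73 to 2.44), and had a like ratio in Drd2 Adora2a nuclei, at 511 CPM in US+, against 260.0 CPM in US- (1.97). Pdyn was at 40.6 CPM in US+, against 27.6 CPM in US- Drd1 nuclei (1.47, 1.19 to 1.82). Tac1 was at 87.8 and 91.2 CPM (0.963, 0.841 to 1.10), an interval that holds 1. The part of free Penk RNA from Drd2 Adora2a nuclei in the level of Drd1 nuclei was not tested.

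The D1 cascade as a whole lay near no difference. Of 40 genes, 5 were over 1.5-fold higher in US+ Drd1 nuclei and 4 over 1.5-fold lower, with a median ratio of 1.01. Among all genes, 5.58% were higher and 10.5% lower. Beside Rgs2, Arpp19, a phosphatase inhibitor that protein kinase A phosphorylates, was at 129.9 CPM in US+, against 53.7 CPM in US- (2.42, 2.13 to 2.75). Gnas was at 243 CPM, against 132 CPM (1.84, 1.69 to 2.01), and Prkar2a, a regulatory subunit of the kinase, at 75.2 CPM, against 40.1 CPM (1.88, 1.60 to 2.20). Pde8b, a phosphodiesterase for cAMP, was at 696 CPM, against 400.3 CPM (1.74, 1.65 to 1.83). On the lower side were Gng7, of the olfactory G protein, and the phosphodiesterase genes Pde2a and Pde1b. Phosphodiesterase genes thus lay on both sides. Gng7 was at 165 CPM in US+, against 286 CPM in US- (0.577, 0.526 to 0.632). Pde2a was at 125 CPM, against 213 CPM (0.587, 0.527 to 0.652), and Pde1b at 104 CPM, against 173 CPM (0.600, 0.533 to 0.674). Gnal itself was at 594 and 634 CPM (0.938), Ppp1r1b at 28.7 and 31.3 CPM (0.917, 0.722 to 1.16) and Creb1 at 85.1 and 81.8 CPM (1.04, 0.906 to 1.19).

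**Figure D5:**
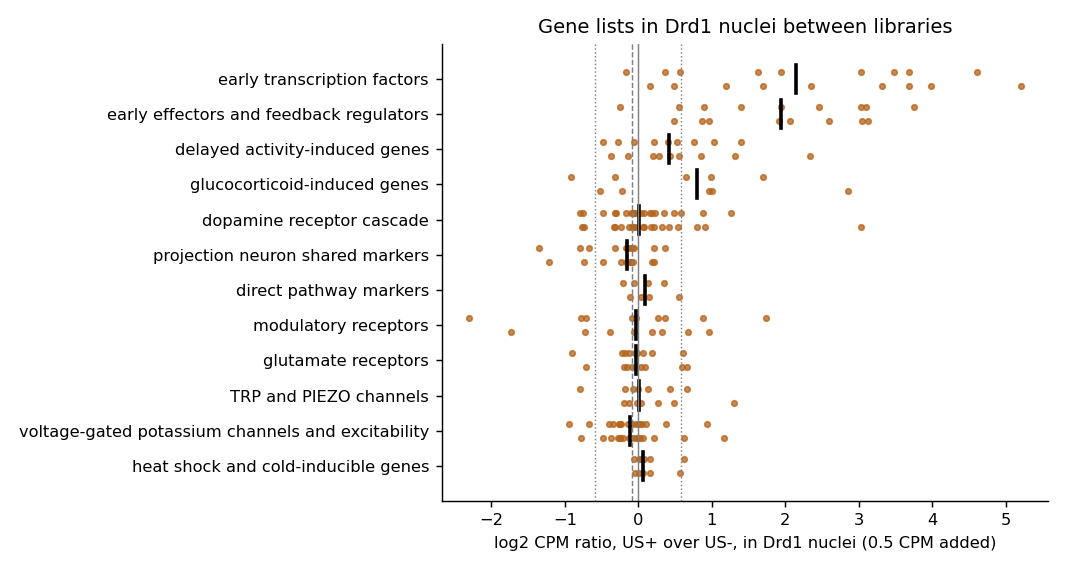
Log2 ratio of CPM, US+ over US-, in Drd1 nuclei (0.5 CPM added to both) for genes with at least 50 UMIs in 12 lists; each point is a gene and each bar the median of the list. The dashed line is the median of all 12591 genes, at a ratio of 0.938, and the dotted lines mark 1.5-fold; the medians of the early lists lie at ratios of 4.42 and 3.83 and that of the cascade at 1.01.

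Shared projection neuron markers lay mostly lower in US+ than in US- Drd1 nuclei. Of 21 measured, none was over 1.5-fold higher in US+ and 5 were over 1.5-fold lower. Over all genes, 5.58% were higher and 10.5% lower. A ratio below 1 was found for 17 of the 21 markers and for 7681 of all 12591 genes. The median ratio of the markers was 0.897, against 0.938 over all genes. Rasd2, a small G protein enriched in the striatum, was at 4.78 CPM in US+, against 12.9 CPM in US- (0.369, 0.205 to 0.623), and Rxrg, a retinoid receptor, at 20 CPM, against 47.0 CPM (0.426, 0.324 to 0.551). Gad1, a GABA-synthesizing enzyme, was at 133 and 104 CPM (1.28, 1.15 to 1.44). Slc32a1, the vesicular transporter of GABA, was at 24.8 and 21.2 CPM (1.17, 0.894 to 1.51). Of 8 direct-pathway markers none passed 1.5-fold in either direction: Slc35d3 had a ratio of 1.29, and the developmental factors Ebf1 and Eya1 had ratios of 0.865 and 0.917. Of 4 indirect-pathway markers, 2 were over 1.5-fold higher, Penk and the factor Sp9 (5.37 CPM in US+, against 3.21 CPM in US-), and Grik3 and Ptprm had ratios of 1.13 and 1.29.

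The striosome and matrix compartments of the striatum, patches and the tissue around them, have their own markers. Of 8 striosome markers, 1 was over 1.5-fold higher in US+ Drd1 nuclei, Nr4a1, which is also an early gene, and 1 was over 1.5-fold lower, Lypd1 at 22.7 CPM in US+, against 35.1 CPM in US- (0.647, 0.498 to 0.831). Sema5b, a guidance gene, was at 39.1 and 47.1 CPM (0.830, 0.679 to 1.01). Of 7 matrix markers, 2 were over 1.5-fold higher, the G protein subunit gene Gng2 at 107 CPM in US+, against 40.8 CPM in US- (2.63, 2.28 to 3.04), and Gda, guanine deaminase, at 360.0 CPM, against 212 CPM (1.70, 1.58 to 1.82). Id4 and Sv2b, the lowest of the matrix list, had ratios of 0.556 and 0.702. The median ratio was 0.991 for striosome and 1.13 for matrix markers. Among all genes, 5.58% were over 1.5-fold higher and 10.5% lower. Of 26 striatal transcription factors measured from 29, 4 were over 1.5-fold higher and 3 over 1.5-fold lower (median ratio 1.05). Nr2f2, an orphan receptor of ventral forebrain development, was at 7.46 CPM in US+, against 2.51 CPM in US- (2.98, 1.64 to 5.41), and Tshz1, a zinc finger factor, at 43.3 CPM, against 70.9 CPM (0.610, 0.507 to 0.731).

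The genes with the lowest ratios were expressed at modest levels. Rtn4rl1, a relative of the Nogo receptor, was at 11.6 CPM in US+ Drd1 nuclei, against 36.8 CPM in US- (0.317, 0.222 to 0.441). Gabrd, the delta subunit of extrasynaptic GABA-A receptors, was at 13.4 CPM, against 41.4 CPM (0.325, 0.233 to 0.442), and had UMIs in 11.97% of US+ and 30.7% of US- nuclei. Epyc, a small matrix proteoglycan, was at 19.1 CPM, against 58.0 CPM (0.329, 0.250 to 0.427). Both Gabrd and Rtn4rl1 were low in other classes as well. Gabrd had a ratio of 0.405 in Drd2 Adora2a nuclei and 0.210 in other nuclei, and Rtn4rl1 of 0.394 and 0.516. The other genes of the lowest 12 were St3gal1, Gm28494, Prox2, Acvr1c, 5830444B04Rik, Gm13974, Gm13703, Creg2 and Pde6a, with ratios from 0.334 to 0.395. Prox2 and Creg2, at 0.349 and 0.387 in Drd1 nuclei, had ratios of 0.977 and 0.951 in other nuclei. The share of nuclei with Creg2 UMIs was lower in US+ in both striatal classes. It was 7.39% in US+ and 13.96% in US- Drd1 nuclei. In Drd2 Adora2a nuclei it was 7.53% (4.52 to 11.64) in US+ and 12.05% (9.94 to 14.42) in US-.

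Receptors for transmitters lay on both sides. Of 18 glutamate receptor genes, 3 were over 1.5-fold higher in US+ Drd1 nuclei and 2 over 1.5-fold lower (median ratio 0.977). Among all genes, 5.58% were higher and 10.5% lower. The kainate receptor gene Grik1 was at 209 CPM in US+, against 132 CPM in US- (1.59, 1.45 to 1.74), and the metabotropic receptor gene Grm8 at 192 CPM, against 126 CPM (1.52, 1.38 to 1.68). Grm3 was at 333 CPM, against 625 CPM (0.533, 0.499 to 0.568), and Grm4 at 25.4 CPM, against 42.0 CPM (0.604, 0.473 to 0.765). Grm3 and Grm4 encode metabotropic receptors, as does Grm8 on the higher side, so this family lay on both sides. Of 14 GABA receptor genes, 1 was over 1.5-fold higher, Gabrg1 at 142 CPM in US+, against 76.8 CPM in US- (1.84), and 1 was over 1.5-fold lower, Gabrd. The alpha subunit genes Gabra3 and Gabra4 had ratios of 1.32 and 0.783.

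Of 17 modulatory receptors measured from 24, 4 were over 1.5-fold higher and 5 over 1.5-fold lower (median ratio 0.974). Over all genes, 5.58% were higher and 10.5% lower. The summed level of the list, which includes Ntrk2, had a ratio of 1.53 (1.49 to 1.58). Tacr1, the substance P receptor, was at 35.5 CPM in US+ Drd1 nuclei, against 18.04 CPM in US- (1.97, 1.55 to 2.50). Adora1, the inhibitory adenosine receptor, was at 3.28 CPM in US+, against 12.1 CPM in US- (0.271, 0.132 to 0.502). The serotonin receptor gene Htr6 had 2 UMIs in US+ and 49 in US- (ratio 0.122, 0.0143 to 0.463). Oprk1, the receptor of dynorphin, was at 19.4 CPM in US+, against 33.7 CPM in US- (0.576, 0.435 to 0.754), and Oprm1, the mu opioid receptor that marks striosomes, at 130.5 and 138 CPM (0.943, 0.845 to 1.05).

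Among the TRP and PIEZO channels the study searched for an ultrasound sensor. It chose Trpm2 by its level in a torpor-associated population and followed it by in situ hybridization, in cultured cells and by knockdown. The ratios here are between libraries in Drd1 nuclei and do not bear on that choice. Of 14 measured from 30, 2 were over 1.5-fold higher in US+ and 1 over 1.5-fold lower. Over all genes, 5.58% were higher and 10.5% lower. The median ratio was 1.01 and that of the summed level 1.14 (1.11 to 1.18). Trpm2, a channel opened by oxidants and warmth, was at 18.8 CPM in US+, against 19.7 CPM in US- (0.953, 0.706 to 1.27), and at 23.1 and 25.3 CPM in other nuclei of US+ and US-. Trpc7, a channel opened by diacylglycerol, was at 48.1 CPM in US+, against 84.0 CPM in US- (0.572, 0.480 to 0.678). Trpv2 was at 14.0 CPM, against 8.72 CPM (1.61, 1.10 to 2.32). Pkd2l2, a polycystin relative, had 88 UMIs in US+ and 302 in US- (0.868, 0.677 to 1.10). Piezo1 had 0 UMIs in US+ and 4 in US- Drd1 nuclei, and Piezo2 had 3 and 19. Trpm2, Piezo1 and Piezo2 were named after their values were seen.

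Of 32 potassium channel and excitability genes, 3 were over 1.5-fold higher in US+ Drd1 nuclei and 3 over 1.5-fold lower (median ratio 0.922). The shares over all genes were 5.58% higher and 10.5% lower. Kcnj2, an inward rectifier that holds these neurons at rest, was at 18.8 CPM in US+, against 8.12 CPM in US- (2.32, 1.64 to 3.26), and the G protein-gated rectifier gene Kcnj6 at 52.2 CPM, against 27.1 CPM (1.93, 1.59 to 2.34). Kcna1, a voltage-gated channel gene, was at 38.8 CPM in US+, against 74.95 CPM in US- (0.518, 0.426 to 0.625).

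Genes that respond to glucocorticoids, the hormones of stress, lay on both sides, with more of them higher in US+. Of 10 measured from 16, 6 were over 1.5-fold higher in US+ Drd1 nuclei and 1 over 1.5-fold lower (median ratio 1.74). Over all genes, 5.58% were higher and 10.5% lower. Zbtb16, a zinc finger factor, was at 27.8 CPM in US+, against 3.41 CPM in US- (8.15, 5.45 to 12.4), and the clock gene Per1, which is also an early gene, at 41.2 CPM, against 12.4 CPM (3.32, 2.58 to 4.26). Sgk1, a kinase gene induced by the hormone, was at 103 CPM, against 196 CPM (0.527, 0.469 to 0.591), and the receptor gene Nr3c1 at 52.5 CPM, against 75.8 CPM (0.694, 0.585 to 0.818). The list thus had members well on either side. In other nuclei, 8 of 15 measured were over 1.5-fold higher in US+ and 0 over 1.5-fold lower (median ratio 1.58). Over all genes measured in other nuclei, 623 of 19959 were higher and 332 lower. Zbtb16 had a ratio of 3.79 in other nuclei and Sgk1 of 0.668.

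Heat shock and cold-inducible genes lay near no difference. Of 11 measured from 14, 1 was over 1.5-fold higher, Dnajb1, at 5.67 CPM in US+, against 3.51 CPM in US- from 19 and 35 UMIs (1.62, 0.874 to 2.91), and none was over 1.5-fold lower. Cirbp, which cooling induces, was at 38.8 CPM in US+, against 26.2 CPM in US- (1.48, 1.19 to 1.84). The heat shock genes Hsph1 and Hsf1 were the lowest, with ratios of 0.956 and 0.967. A relative of Cirbp, Rbm3, named after its value was seen, was at 33.1 and 33.0 CPM (1.00, 0.803 to 1.25). The summed mitochondrially encoded genes were at 746 CPM in US+, against 692 CPM in US- Drd1 nuclei (1.08, 1.03 to 1.13), with a ratio of 0.683 in Drd2 Adora2a and 1.21 in other nuclei. Of 12 measured in Drd1 nuclei, none passed 1.5-fold.

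The Drd1 nuclei were not uniform. Foxp2 had UMIs in 87.0% of US+ and 90.7% of US- nuclei, Tac1 in 47.2% and 51.0%, Pdyn in 27.5% and 20.4%, and Oprm1 in 50% and 48.6%. For comparison, Tac1 had UMIs in 7.11% of US+ and 14.6% of US- Drd2 Adora2a nuclei, whose median depth was 10461 and 8629 UMIs. These shares were close between the libraries for Tac1 and Oprm1. They were further apart for Wfs1, a gene of the endoplasmic reticulum that is high in the ventral striatum, with 49.3% in US+ and 33.4% in US-, and for Rxrg, with 19.4% and 30.8%. Of 14 eccentric and ventral markers measured, 2 were over 1.5-fold higher in US+ (Crym at 140.0 CPM, against 82.3 CPM, and Wfs1 at 74.9 CPM, against 46.4 CPM) and 3 over 1.5-fold lower, with Stard5 at 47.2 CPM, against 78.8 CPM, and the serotonin receptor gene Htr4 at 181 CPM, against 299 CPM. A different mix of subtypes in the libraries and a difference within each subtype cannot be told apart.

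Split by single genes, a choice made after the data were seen, the early gene sum was higher in US+ in each split shown. Nuclei with Tac1 UMIs had 239.8 CPM in US+, against 36.5 CPM in US- (6.57, 5.54 to 7.83), and nuclei without had 254 and 21.9 CPM (11.6, 9.31 to 14.6). With Foxp2 the ratio was 8.75 (7.59 to 10.1), and without it 4.82 (3.14 to 7.55) from 37 US+ and 91 US- nuclei. With and without Oprm1 it was 7.83 and 8.97, with and without Epha4, an ephrin receptor of the matrix, 10.0 and 6.27, with and without Wfs1 10.2 and 7.40, and with and without Rxrg 5.92 and 10.1. Nuclei of at most 9000 UMIs had a ratio of 6.50 (5.23 to 8.09) and deeper ones of 10.1 (8.51 to 12.2). A split by a detected gene also splits by depth.

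Markers of glia were found in the Drd1 nuclei, those of oligodendrocytes in US+ near the level of other nuclei, and some moved with the library. The 10 oligodendrocyte markers summed to 116.7 CPM in US+, against 63.6 CPM in US- Drd1 nuclei, with Opalin at 0 in US-, and to 120.3 and 76.8 CPM in US+ and US- other nuclei. Of 4 measured, 3 were over 1.5-fold higher in US+, and Mobp, a myelin gene, was at 14.9 CPM in US+, against 1.20 CPM in US-, in 17 US+ and 8 US- nuclei. The 10 astrocyte markers summed to 61.5 CPM in US+, against 48.0 CPM in US-, with Gfap at 0 in US+, the 10 microglia markers to 129.3 and 121.2 CPM, with Trem2 at 0 in both libraries and Itgam at 0 in US+, and the 10 vascular and ependymal markers to 19.7 and 19.2 CPM. The 10 interneuron markers summed to 123.9 CPM in US+, against 85.4 CPM in US-, with Slc18a3 at 0 in US+. Of the interneuron list 6 were measured, 2 over 1.5-fold higher (Nos1 at 2.38 and Kit at 2.48) and 1 over 1.5-fold lower, with Chat at 0.496 and Calb2 at 0.941. The 8 cortical markers summed to 219 CPM in US+ and 128 CPM in US-, and of 3 measured 2 were over 1.5-fold higher (Rorb at 2.17 and Cux2 at 1.64). Their part in the levels above was not tested.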

How the data were processed

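Nuclei of the POA of 4 pooled mice per group were sorted for NeuN and made into 1 droplet library each. The deposited matrices hold raw counts of UMIs for each gene in each nucleus, made by the authors; their processing notes name Cell Ranger 6.1.1 and mm10. A scaling of the libraries to equal saturation is described in the methods, and whether it preceded these matrices is not given in the sources used here. The limits on genes and mitochondrial UMIs are those of the study, to which at least 2000 UMIs was added. No doublet caller was run; limits of 5000 genes and the removal of nuclei with glutamate transporter UMIs were tried instead.

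UMIs were summed over a class of nuclei and scaled to CPM. Levels carry exact 95% Poisson intervals, ratios conditional binomial intervals, ratios of ratios conditional odds-ratio intervals and shares Clopper-Pearson intervals (Python 3.11.15, numpy 2.4.6, scipy 1.17.1, pandas 2.3.3, matplotlib 3.10.9; R 4.3.3 and edgeR 4.0.16 for trimmed mean factors as an alternative). The computations were tested on simulated data. Counts past 1.5-fold add 0.5 CPM, the ratios against other nuclei that rank genes add 1 CPM, and printed ratios add none. To compare shares at equal depth each nucleus was thinned at random to 2000 UMIs. The median depth was 10068.5 UMIs in US+ and 9131 in US- Drd1 nuclei, 10461 and 8629 in Drd2 Adora2a nuclei, 10479 and 9314 in Chst9 nuclei and 7331.5 and 7520.5 in other nuclei.

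The Drd1 nuclei and the gene lists were chosen with earlier results of these data known. Named between libraries were the 12 highest and 12 lowest genes with at least 200 UMIs, the 5 early genes of the study and the 2 highest and 2 lowest genes with at least 50 UMIs of each list described. Named against other nuclei were the 12 highest and 8 lowest genes with at least 500 UMIs where higher, the given markers and single genes of the identity, receptor and cascade lists for their role. The rule genes were left out. Some genes that this rule names are not reported here. Coordinates match 463 of 464 named or listed genes in the GRCm38 (mm10) annotation. The precursor list had 1 measured gene of 7, Vcan (ratio 1.22). Alternatives were other limits of the rule, depth, genes, weights, scaling and added CPM.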

Additional observations from a re-analysis of the deposited data

Results flagged for a closer look

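For 13 of the named genes, the level in US+ over that in US- lay on opposite sides of 1 in the Drd1 nuclei and in all other nuclei, with both intervals clear of 1. Each side is 1 library against 1, so the differences were not tested. Higher in US+ Drd1 nuclei and lower in US+ other nuclei were Kcnj2 (ratio 2.32 against 0.747), Penk (2.06 against 0.905), Tacr1 (1.97 against 0.891), Crym (1.70 against 0.733), Cux2 (1.64 against 0.964), Wfs1 (1.62 against 0.791), Gad1 (1.28 against 0.859), Arhgap10 (1.17 against 0.555), Strip2 (1.13 against 0.653) and Pde10a (1.05 against 0.769). Lower in US+ Drd1 nuclei and higher in US+ other nuclei were Trpc7 (0.572 against 1.04), Nr3c1 (0.694 against 1.19) and Xist (0.904 against 1.02). Other nuclei held 2.41% Drd2 Adora2a nuclei of the US+ library and 7.74% of the US- library, and in these Pde10a, Strip2 and Wfs1 had ratios of 0.900, 1.18 and 1.10. The part of this mix in the ratios of other nuclei was not tested.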

How the results depend on the processing

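Of 143 values under alternative settings, 113 stayed within 1.5 times the value reported, for a count of genes, or within its 95% interval, for a share or the early gene ratio. That ratio stayed between 4.82 and 11.6. The share of Drd1 nuclei moved with the rule, as its construction gives: 3.36% in US+ and 9.83% in US- at 5000 UMIs, 3.32% and 9.45% with Rarb at 1, 2.43% and 7.92% with Rarb at 4, and 1.06% and 3.76% with Drd1 at 2. The early gene ratio, 8.27, was 10.3 with Drd1 at 2, 7.16 with equal weight for each nucleus and 6.16 after thinning. In splits added after the data were seen, it was 4.82 without Foxp2, 6.57 with and 11.6 without Tac1, 6.50 up to 9000 UMIs and 10.1 above. Genes over 1.5-fold higher, 502, were 288 after thinning, 1041 with a limit of 20 UMIs and 222 with one of 500, and genes over 1.5-fold lower, 882, were 335, 1901 and 164, and 425 (beside 382 higher) with 5 CPM added, so the excess of lower genes turned at 500 UMIs. With the trimmed mean factors of edgeR they were 607 and 730. Early transcription factors over 1.5-fold higher, 13 of 18 measured, were 6 of 6 after thinning, 8 of 11 up to 9000 UMIs and 0 of 0 measured without Foxp2, and early effectors, 14 of 17, were 9 of 11 with Drd1 at 2 and 8 of 8 after thinning. The shares of nuclei with an early gene UMI, 71.5% in US+ and 18.2% in US-, were 33.1% and 5.95% after thinning. Nuclei with Y-linked UMIs and no Xist gave no value, since there were 0. No paired analysis was possible because each group is 1 library. With 284 US+ nuclei, a gene under 0.896 CPM rests on fewer than 3 UMIs in US+, and no interval here holds the spread between mice.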
